A study of Mus musculus with 18 samples.

Results

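The cytochrome P450 genes of the mouse were followed through maps of the nuclear lamina, of heterochromatin and of Foxa2 binding in liver. The members were the protein-coding genes on chromosomes 1 to 19 in the GENCODE vM21 annotation whose symbol is Cyp followed by a family number, a subfamily letter and a gene number. That rule gave 94 genes of 20807. In the genome, 51 of them lie in 6 clusters of related genes, namely Cyp2a-b (10 genes), Cyp2c (14), Cyp2d (8), Cyp2j (8), Cyp3a (6) and Cyp4a (5), and 43 lie outside them. Symbols that end in a further letter (Cyp4a12a, Cyp4a12b, Cyp4a30b, Cyp3a41a and Cyp3a41b) and Cyp51 do not follow the pattern and were not members.

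Chromatin was taken from whole livers of male C57BL/6 mice and analysed by ChIP-Seq, which reads out where an antibody target sits on DNA. Lamin B1 and H3K9me3 were profiled in young (3 months) and old (21 months) wild-type mice (2 replicates per age and antibody). Foxa2 was profiled in Zmpste24 knockout mice and wild-type control littermates aged 12 weeks with 3 replicates per genotype. Lamin B1 is a protein of the nuclear lamina, H3K9me3 is trimethylated lysine on histone H3 and marks constitutive heterochromatin, and Foxa2 is a winged-helix transcription factor of hepatocytes that can bind closed chromatin. Zmpste24 is the metalloprotease that matures prelamin A, and the knockout mice lack it in every tissue. The replicates had been merged before regions were called, so each of the 6 lists gives positions without a signal, a score or a spread between mice. A difference between lists is therefore given as a count with no test, and liver cells of different types cannot be told apart in it. The H3K9me3 lists hold fewer regions than the study's text gives, so a gene without an H3K9me3 region here is one without a region in these lists. The lists held 1624 young and 1519 old lamin B1 domains, 2784 young and 2496 old H3K9me3 regions, and 4960 wild-type and 8177 KO Foxa2 sites. Their reach differed. Old lamin B1 domains covered 930.3 Mb against 466.3 Mb in young livers, and H3K9me3 regions covered 616.6 Mb in old against 575.7 Mb in young.

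Cytochrome P450 enzymes are haem proteins that insert oxygen into their substrates, most of them in the endoplasmic reticulum and a few in mitochondria. In hepatocytes, members of families 1 to 3 oxidise drugs, toxins and steroids, family 4 oxidises fatty acids, and families 7, 8, 27 and 39 turn cholesterol into bile acids. Many of the genes arose by local duplication, so that neighbours are alike in sequence and share long stretches of chromatin. Several are controlled by the nuclear receptors PXR (Nr1i2), CAR (Nr1i3) and PPAR alpha (Ppara), and by Ah receptor (Ahr).

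Lamin B1 domains touched a smaller share of P450 genes than of all genes. In young livers 17 of 94 gene bodies (18.1%) were touched by at least 1 bp, where 40.9% of all 20807 genes were, and in old livers 42 (44.7%), where 68.3% of all genes were. Neither age had a domain over 50 members (53.2%, with 27.3% of all genes in that state). A domain was called in old livers only over 27 members (28.7%, all genes 31.7%), at both ages over 15 (16.0%, all genes 36.6%) and in young livers only over Cyp20a1 and Cyp2c55 (2.13%, all genes 4.36%). The 27 genes touched in old livers only lay in 19 domains, since neighbours share a domain. Transcription start sites gave the same order, with 16 members inside a young domain and 39 inside an old one (background 38% and 65.7%).

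H3K9me3 touched fewer members in old than in young livers, while it touched more of all genes. Young regions touched 25 members (26.6%, where the share of all genes was 17.4%), and old regions touched 21 (22.3%, where it was 31.2%). A region was called in young livers only over 14 members (14.9%, all genes 7.13%), in old livers only over 10 (10.6%, all genes 20.9%) at both ages over 11 (11.7%, all genes 10.3%) and at neither over 59 (62.8%, all genes 61.7%). The 14 genes rested on 8 young regions. The difference of 4 genes between ages rested on few loci. Without the Cyp2j cluster, where 1 region held 4 genes, the counts were 21 young and 21 old, and without Cyp2c or Cyp2d the difference was 1 gene. By start site, 21 members lay in a young region and 20 in an old one (background 13.6% and 25.7%).

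**Figure D1:**
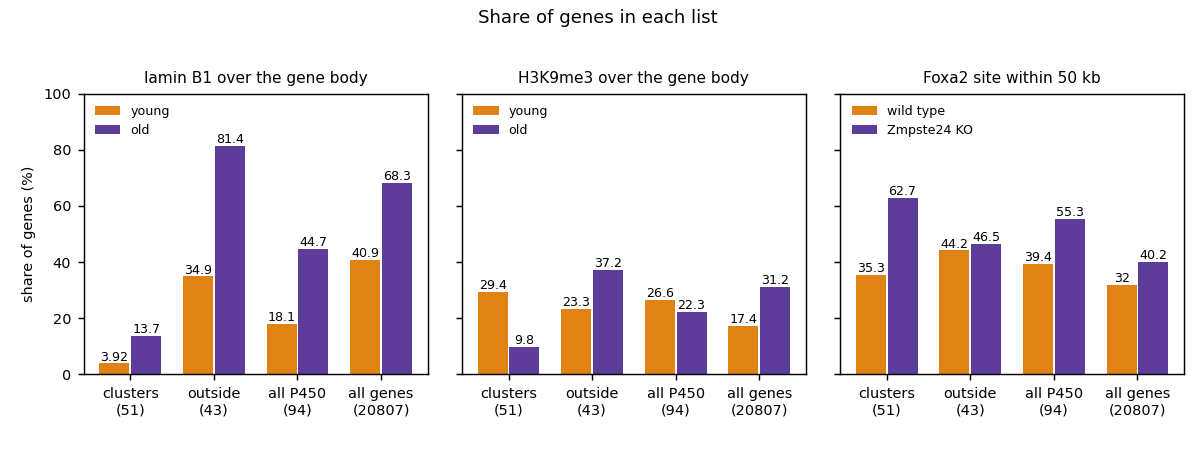
Share of genes (%) touched by a lamin B1 domain or an H3K9me3 region in young (orange) and old (purple) livers, and share with a Foxa2 site within 50 kb in wild-type (orange) and Zmpste24 KO (purple) livers. Bars stand for the 51 P450 genes in clusters, the 43 outside them, all 94, and all 20807 genes; lamin B1 touched 3.92% and 13.7% of clustered genes and 34.9% and 81.4% of the others.

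The counts differed between clustered and dispersed P450 genes. Of the 51 clustered genes, 43 had no lamin B1 domain at either age (all genes 27.3%). Young domains touched 2 (3.92%) and old domains 7 (13.7%), and all 7 were Cyp2d genes. Of the 43 genes outside, 15 (34.9%) were touched in young livers and 35 (81.4%) in old. Of all genes, 40.9% and 68.3% were. H3K9me3 touched 15 clustered genes in young livers (29.4%) and 5 in old (9.80%). Outside, it touched 10 (23.3%) and 16 (37.2%), where the shares of all genes were 17.4% and 31.2%. Genes of a cluster share regions, so these counts describe a few loci and not 51 separate events.

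**Figure D2:**
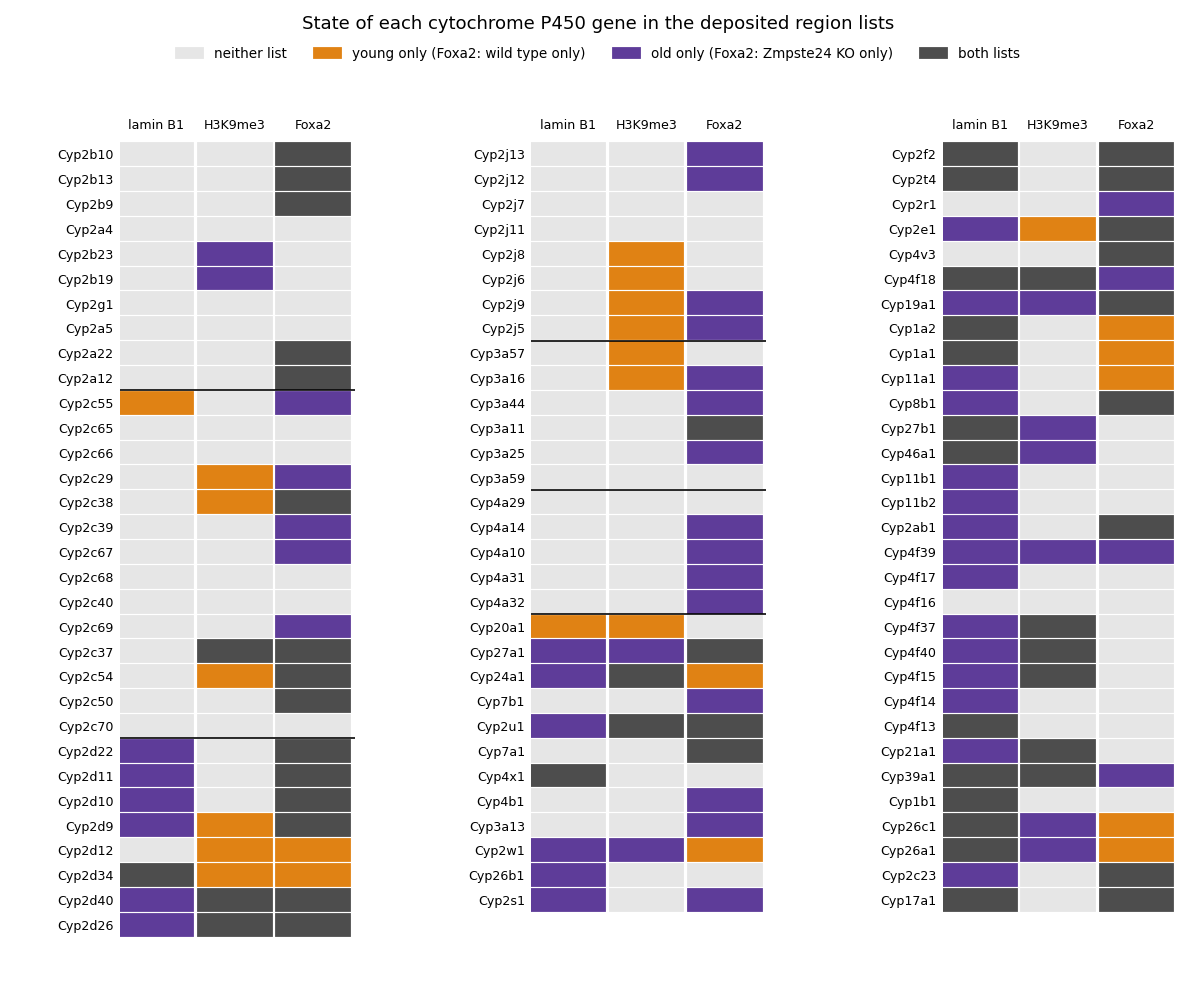
State of each of the 94 P450 genes, 1 row per gene, for lamin B1 and H3K9me3 over the gene body (orange, young only; purple, old only) and Foxa2 within 50 kb (orange, wild type only; purple, Zmpste24 KO only); dark grey is both lists and light grey neither. Clusters are in genome order between black lines, followed by the genes outside, where purple and dark cells fill most of the lamin B1 column.

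In the Cyp2d cluster on chromosome 15, more genes had lamin B1 and fewer had H3K9me3 in old than in young livers. Cyp2d22 is the mouse gene closest to the human drug-metabolising CYP2D6, and Cyp2d9 encodes a testosterone hydroxylase of male liver. In young livers a lamin B1 domain of 120 kb (chr15:82580001-82700000) held Cyp2d34 alone among the 8 genes. In old livers a domain of 1650 kb (chr15:80820001-82470000) held Cyp2d22, Cyp2d11, Cyp2d10 and Cyp2d9, and a domain of 2450 kb (chr15:82610001-85060000) held Cyp2d34, Cyp2d40 and Cyp2d26. Cyp2d12, which lies between these domains, was in neither. H3K9me3 covered Cyp2d9 (chr15:82420001-82490000) and Cyp2d12, Cyp2d34, Cyp2d40 and Cyp2d26 (chr15:82550001-82870000) in young livers. In old livers it covered Cyp2d40 and Cyp2d26 (chr15:82670001-82820000). Across the span of 424 kb from the first to the last gene, the share of bases in lamin B1 was 28.3% in young and 67.0% in old livers, and the share in H3K9me3 was 74.2% and 29.3%.

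In the Cyp2c cluster on chromosome 19, whose products oxidise drugs and arachidonic acid, no lamin B1 domain reached a gene body except for the first 8.36% of Cyp2c55, the first gene, in young livers. A young H3K9me3 region (chr19:39310001-39490000) covered all of Cyp2c38 and 33.8% of Cyp2c29, and no old region touched either gene. A second young region (chr19:39900001-40040000) covered Cyp2c37 and 5.74% of Cyp2c54, and its old counterpart (chr19:39900001-40020000) ended 20 kb earlier and covered Cyp2c37 only. The other 10 genes, among them Cyp2c55 and the last gene, Cyp2c70, which makes the muricholic acids of mouse bile, had no H3K9me3 region at either age.

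In the Cyp2j cluster on chromosome 4, which encodes epoxygenases of arachidonic acid, a young H3K9me3 region of 260 kb (chr4:96440001-96700000) covered the whole of Cyp2j8, Cyp2j6, Cyp2j9 and Cyp2j5. No old region touched any of the 8 genes, and the nearest old regions were 5718 kb before Cyp2j13 and 1456 kb after Cyp2j5. Lamin B1 was absent from the cluster at both ages, with the nearest old domains 6848 kb and 1716 kb away. The Cyp3a cluster on chromosome 5 encodes the main drug-oxidising enzymes of liver. There a young region of 100 kb (chr5:145380001-145480000) covered Cyp3a16 and 23.9% of Cyp3a57, and no old region did. Both marks were called at both ages between Cyp3a16 and Cyp3a44, where no member lies, so the cluster held lamin B1 (11.7% of its span in young and 10.4% in old livers) outside the members.

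The Cyp2a-b and Cyp4a clusters had few or no regions over their members. Cyp2a-b on chromosome 7 holds the phenobarbital-inducible Cyp2b10, the female-biased Cyp2b9 and Cyp2b13, and Cyp2a4 and Cyp2a5. It had no lamin B1 over any member. H3K9me3 touched members in old livers only, namely the neighbours Cyp2b23 and Cyp2b19 (chr7:26660001-26800000), and a region called at both ages (chr7:26390001-26530000) lay between Cyp2a4 and Cyp2b23 over no member. In Cyp4a, whose genes encode fatty acid hydroxylases under PPAR alpha, from Cyp4a29 to Cyp4a32, no lamin B1 or H3K9me3 region touched any of the 5 genes at either age. The nearest H3K9me3 regions were 1082 kb and 2408 kb away on either side in young livers, and 1092 kb and 1608 kb in old.

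**Figure D3:**
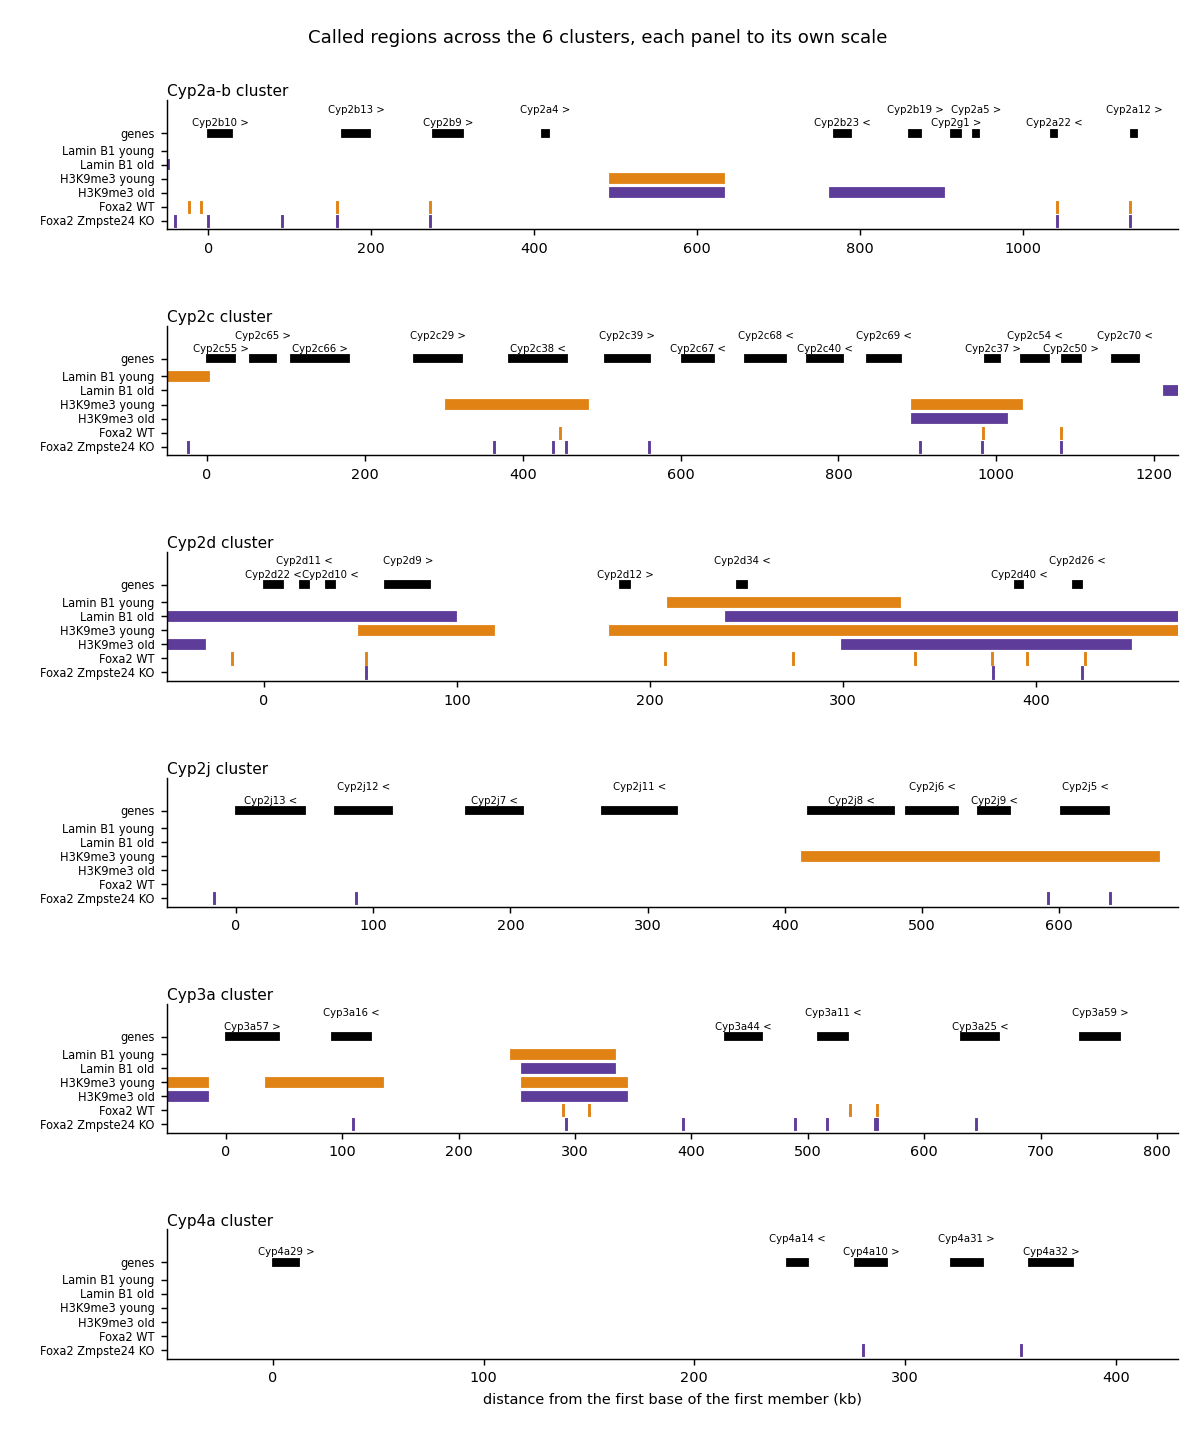
Called regions over the 6 P450 clusters, with distance from the first base of the first member (kb) on each x axis, drawn 50 kb past both ends. Black boxes are genes (> and < give the strand), bars are lamin B1 and H3K9me3 regions and ticks are the middles of Foxa2 sites, orange for young or wild type and purple for old or Zmpste24 KO; the orange H3K9me3 bar over 4 Cyp2j genes has no purple partner, and Cyp4a holds 2 purple ticks alone.

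Outside the clusters the genes are given by role, with no comparison between roles. Among genes of bile acid and oxysterol metabolism, Cyp7a1, the rate-limiting enzyme of bile acid synthesis, and Cyp7b1, an oxysterol hydroxylase, had neither mark at either age. Cyp8b1, needed for cholic acid, lay in a lamin B1 domain of 4590 kb in old livers only (chr9:118150001-122740000). Cyp27a1, the mitochondrial enzyme of the alternative pathway, was in an old domain of 570 kb (chr1:74480001-75050000) and an old H3K9me3 region covered 32.5% of it. Cyp39a1, a hydroxylase of oxysterols, carried lamin B1 and H3K9me3 at both ages. The young H3K9me3 region covered 85.0% of it without its start, and the old region covered all of it. Cyp46a1, the cholesterol hydroxylase best known from brain, had lamin B1 at both ages and H3K9me3 in old livers.

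The 6 steroid hormone genes, which act mainly in adrenal and gonad, all had lamin B1 in old livers. So did 81.4% of the P450 genes outside the clusters and 68.3% of all genes, and Cyp11b1 and Cyp11b2 share 1 domain. Cyp11a1, Cyp11b1, Cyp11b2, Cyp19a1 (aromatase) and Cyp21a1 were touched in old livers only, and Cyp17a1 at both ages. H3K9me3 covered Cyp21a1 at both ages and Cyp19a1 in old livers. Of the vitamin D genes, Cyp2r1, which makes the circulating form in liver, had neither mark, Cyp27b1 had lamin B1 at both ages and H3K9me3 in old livers, and Cyp24a1 gained an old lamin B1 domain of 6710 kb while H3K9me3 covered it at both ages. The retinoic acid hydroxylases Cyp26a1 and Cyp26c1, which are neighbours, had lamin B1 at both ages and H3K9me3 in old livers (chr19:37590001-37820000), and Cyp26b1 had lamin B1 in old livers only.

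Among the xenobiotic genes outside the clusters, Cyp1a1, Cyp1a2 and Cyp1b1, the targets of the Ah receptor, had lamin B1 at both ages and no H3K9me3. Cyp2e1, which oxidises ethanol and acetaminophen, was in an H3K9me3 region of 160 kb in young livers only (chr7:140660001-140820000) and in a lamin B1 domain of 940 kb in old livers only (chr7:140760001-141700000). Cyp2e1 and Cyp2d9 were the 2 members with H3K9me3 in young livers only and lamin B1 in old livers only. Of all genes, 7.13% were in the first state and 31.7% in the second, and the share in both is not given here. Cyp3a13 had neither mark. The products of the 9 Cyp4f genes include hydroxylases of leukotriene B4. Of these genes, 8 (among them Cyp4f14 and Cyp4f17) were touched by old lamin B1, where 68.3% of all genes were. Of the 8, 2 (Cyp4f13 and Cyp4f18) were also touched by young lamin B1. Cyp4f16 had none. H3K9me3 covered Cyp4f37, Cyp4f40, Cyp4f15 and Cyp4f18 at both ages and Cyp4f39 in old livers only. Cyp4v3, a fatty acid hydroxylase, had neither mark.

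Foxa2 sites were counted within 50 kb of each gene body. In wild-type livers 37 members (39.4%) had a site, where the share of all genes was 32%, and in Zmpste24 KO livers 52 (55.3%), where it was 40.2%. Sites in both genotypes were found for 28 members (29.8%, all genes 20.2%), in KO livers only for 24 (25.5%, all genes 20%), in wild-type livers only for 9 (9.57%, all genes 11.8%) and in neither for 33 (35.1%, all genes 48%). The KO list as a whole was the longer, as given above. Counted by gene, the difference sat in the clusters, where 18 members had a wild-type site and 32 a KO site. Outside them, 19 and 20 genes had one. Neighbours in a cluster share sites, so these genes are not separate sites. Between the first and last gene, Cyp2a-b held 4 wild-type and 5 KO sites, Cyp2c 3 and 7, and Cyp2d 6 and 3. Cyp2j held 0 and 3, Cyp3a 4 and 8, and Cyp4a 0 and 2. With a site inside the gene body required, 8 members (8.51%) were counted in wild-type livers, below the 11.1% of all genes, and 17 (18.1%) in KO livers, where all genes had 14.1%. With a flank of 10 kb, 23 and 27 members were counted, where 16.6% and 21% of all genes were. The median gene body was 21.2 kb for members and 17.6 kb for all genes. It was 31.9 kb for members in the clusters and 15.2 kb for those outside.

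Close to start sites the 2 genotypes were alike in number. Within 10 kb of the GENCODE gene start 20 members had a site in wild-type and 20 in KO livers. That was 21.3% each, with a background of 8.71% and 9.74%. RefSeq starts can lie elsewhere. For Cyp2d9, counted here, the RefSeq promoter lies farther from the site. A RefSeq start of Cyp11a1, of Cyp19a1 and of Cyp1a1 lies nearer to a wild-type site than the GENCODE gene start. A site lay over the start of 3 members in wild-type livers and 5 in KO livers (background 2.13% and 1.28%). The median distance from a member's start to the nearest site was 116 kb in wild-type and 46.2 kb in KO livers, where all genes had 137 kb and 95.7 kb.

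**Figure D4:**
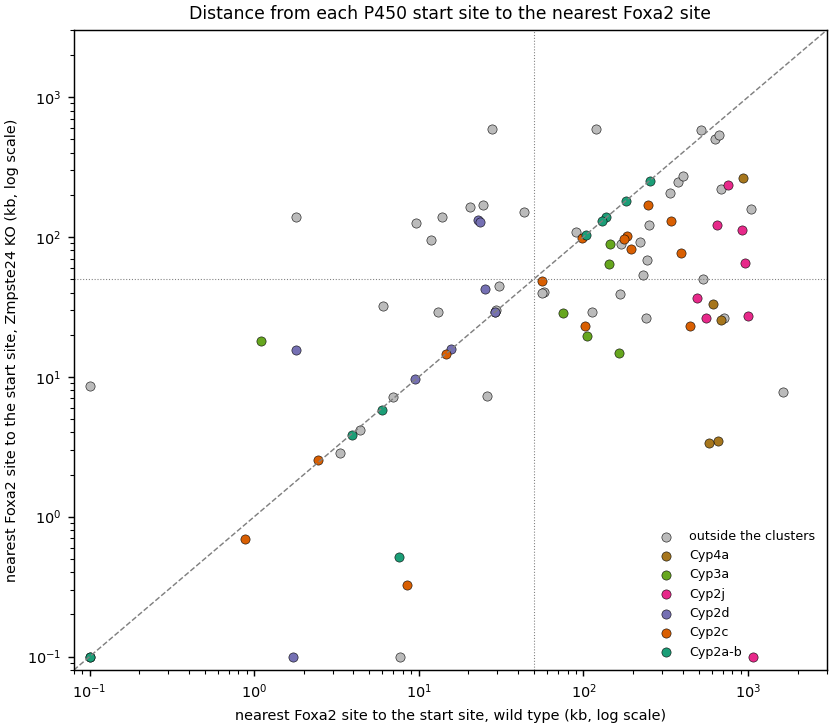
Distance (kb, log scales) from the start of each of the 94 P450 genes to the nearest Foxa2 site in wild-type (x) and Zmpste24 KO livers (y), coloured by cluster, with values below 0.1 drawn at 0.1, 50 kb as dotted lines and equality as a dashed line. Cyp1b1 lies outside the axes at 4175 kb and 722 kb; Cyp2j and Cyp4a genes lie far to the right and below the dashed line.

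Cyp2a12 and Cyp2a22, neighbours in the Cyp2a-b cluster, had a Foxa2 site over the start in both genotypes. Their proximal promoters are shown because the called sites lie on them. The stretches are the 250 bases before the start given by RefSeq, in GRCm38.p6 (the mm10 build), read 5′ to 3′ on the strand of the gene. The capitals mark TATAAA, which starts 39 bases before the RefSeq start in Cyp2a12 and 28 bases before it in Cyp2a22, and which 12.4% of 31396 promoters hold on either strand in the same 250 bases.
Cyp2a12 (chr7:27028840-27029089, + strand): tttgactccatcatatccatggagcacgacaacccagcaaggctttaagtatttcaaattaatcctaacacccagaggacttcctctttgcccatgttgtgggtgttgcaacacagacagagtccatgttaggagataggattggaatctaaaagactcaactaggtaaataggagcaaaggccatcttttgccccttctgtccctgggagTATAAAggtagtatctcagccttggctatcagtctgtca
Cyp2a22 (chr7:26939387-26939636, - strand): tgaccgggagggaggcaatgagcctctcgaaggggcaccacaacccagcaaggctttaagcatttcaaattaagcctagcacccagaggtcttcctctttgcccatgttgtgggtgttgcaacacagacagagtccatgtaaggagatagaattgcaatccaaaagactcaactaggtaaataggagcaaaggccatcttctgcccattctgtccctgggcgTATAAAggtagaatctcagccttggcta
The 2 stretches were identical at 217 of 263 aligned columns (82.5%), with a longest identical run of 50 bases. The site at Cyp2a12 was 329 bp wide in wild-type and 300 bp in KO livers, and the site at Cyp2a22 657 bp and 991 bp. Neither promoter holds the forkhead core TGTTTAC.

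Cyp2b9 and Cyp2b13 had a site at nearly the same distance in both genotypes, 3.94 kb and 3.87 kb before the start of Cyp2b9 and 5.96 kb and 5.82 kb before that of Cyp2b13. Forkhead factors such as Foxa2 bind the word TGTTTAC. The 60 bases around this word (in capitals, on the strand that carries it) were the same at both genes. Here and below the word could lie anywhere in the called site, and binding at it was not tested.
Cyp2b13 (chr7:26055321-26055380, - strand): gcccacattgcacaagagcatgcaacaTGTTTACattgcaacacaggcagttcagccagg
Cyp2b9 (chr7:26169231-26169290, - strand): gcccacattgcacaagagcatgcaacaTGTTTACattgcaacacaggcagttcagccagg
The 2 wild-type sites were identical at 639 of 709 aligned columns (90.1%), with a longest identical run of 232 bases, so reads from 1 copy can in part be placed only where the copies differ. In the same cluster, Cyp2b10 had wild-type sites 7.57 kb and 23.3 kb before its start and KO sites 0.512 kb before it and between it and Cyp2s1. No site lay within 50 kb of Cyp2a4, Cyp2b23, Cyp2b19, Cyp2g1 or Cyp2a5 in either genotype.

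The Cyp2c cluster of 14 genes had 4 near a wild-type site (all genes 32%) and 9 near a KO site (all genes 40.2%). Cyp2c50 had a site 0.884 kb before its start in wild-type and 0.689 kb in KO livers, and Cyp2c37 at 2.45 kb and 2.52 kb. Cyp2c38 had an intronic wild-type site 8.46 kb from its start and an intronic KO site at 0.327 kb. A further KO site in an intron of Cyp2c38 held TGTTTAC at 2 positions. Cyp2c55, Cyp2c29, Cyp2c39, Cyp2c67 and Cyp2c69 had a site within 50 kb in KO livers only. The sequence at Cyp2c37 is given because the site was called in both genotypes, and 1 of those at Cyp2c38 because the site was called in KO livers only.
Cyp2c37, both genotypes (chr19:39989562-39989621, + strand): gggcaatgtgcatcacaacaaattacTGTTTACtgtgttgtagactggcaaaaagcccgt
Cyp2c38, KO only, intron (chr19:39445692-39445751, + strand): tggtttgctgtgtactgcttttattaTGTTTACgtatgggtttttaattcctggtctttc
The site at Cyp2c37 lay in the H3K9me3 region called at both ages, with the core 2830 bases before the start of the gene. The site at Cyp2c38 lay in the region called in young livers only.

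Cyp2j and Cyp4a had no wild-type site within 50 kb of any gene (all genes 32%). In KO livers 4 of 8 and 4 of 5 genes had a site (all genes 40.2%). The median gene body was 41.6 kb in Cyp2j and 15.4 kb in Cyp4a, where that of all genes was 17.6 kb. The median distance from the start to the nearest site was 838 kb in wild-type and 50.95 kb in KO livers for Cyp2j, and 659 kb and 25.6 kb for Cyp4a. For all genes it was 137 kb and 95.7 kb. Cyp2j12 had a KO site in an intron 26.2 kb from its start. Cyp2j5, an epoxygenase of liver and kidney, had a KO site over its start, where the nearest wild-type site was 1074.5 kb away. This site lay in the H3K9me3 region that was called in young livers only. Cyp4a10, an omega-hydroxylase of fatty acids, had an intronic KO site 3.47 kb from its start and Cyp4a32 a KO site 3.38 kb before it, and the nearest wild-type sites were 659 kb and 576 kb away. Cyp4a14 and Cyp4a31 had their KO sites within 50 kb through the same 2 sites. The core word at Cyp2j5 lies 208 bases before the start of the gene and 336 bases from the middle of the called site.
Cyp2j5, KO only (chr4:96664336-96664395, - strand): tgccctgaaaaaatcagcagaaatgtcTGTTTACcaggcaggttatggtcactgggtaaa

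In the Cyp3a cluster of 6 genes, 1 was near a wild-type site (all genes 32%) and 4 near a KO site (all genes 40.2%). Cyp3a11, the main member of its subfamily in mouse liver and a PXR target, had a wild-type site 1.10 kb before its start that was not called in KO livers, where the nearest site was in an intron at 17.9 kb. Another site, 24.5 kb before the start, was called in both genotypes. Cyp3a16, Cyp3a44 and Cyp3a25 had sites in KO livers only, in introns of Cyp3a16 and over an exon and intron of Cyp3a25. Cyp3a57 and Cyp3a59, the first and the last gene, had none within 50 kb. Cyp2d was the cluster with more wild-type sites, with all 8 genes near a wild-type site and 6 near a KO site (all genes 32% and 40.2%). Cyp2d12 and Cyp2d34 had wild-type sites only, and a site at 9.46 kb from the GENCODE start of Cyp2d9 was called in both genotypes. The RefSeq promoter of Cyp2d9 (chr15:82452127-82452426) lies farther from that site. Cyp2d26 had a wild-type site 1.72 kb before its start, and a KO site over the start. Cyp2d40 had a wild-type site 1.78 kb before its start and a KO site at 15.6 kb. The site before Cyp2d26 carries the core word.
Cyp2d26, wild type only (chr15:82796155-82796214, + strand): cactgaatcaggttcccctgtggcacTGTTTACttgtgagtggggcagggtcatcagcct

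Among the bile acid genes 5 of 6 had a Foxa2 site within 50 kb in KO livers (all genes 40.2%) and 3 of 6 in wild-type livers (all genes 32%). Their median gene body was 26.1 kb, where that of all genes was 17.6 kb, so the window searched was wider. Cyp7a1 had 2 sites in both genotypes, 1 at 29.2 kb downstream of its start and 1 at 36.2 kb in wild-type and 35.9 kb in KO livers, and a further KO site at 51.9 kb. Cyp8b1 had a site 7.003 kb before its start in wild-type and 7.13 kb in KO livers. Cyp27a1 had an intronic site in both genotypes, 7.66 kb and 7.93 kb from the start, and a KO site over the start. Cyp39a1 had 2 intronic KO sites, the nearer at 7.81 kb, with the nearest wild-type site 1627 kb away. Cyp7b1 had KO sites only, 1 of them 26.3 kb before the start and 1 in an intron with the core word 77170 bases from the start. Cyp46a1 had none. The sequences at Cyp8b1 and Cyp7b1 are a site called in both genotypes and a site called in KO livers only. The word at Cyp8b1 lies 123 bases from the middle of the wild-type site and 527 bases from that of the KO site. The word at Cyp7b1 lies 165 bases from the middle of its site.
Cyp8b1, both genotypes (chr9:121923591-121923650, + strand): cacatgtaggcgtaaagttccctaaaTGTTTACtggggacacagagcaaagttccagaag
Cyp7b1, KO only, intron (chr3:18166136-18166195, - strand): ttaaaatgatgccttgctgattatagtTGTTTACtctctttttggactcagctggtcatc

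Genes with a wild-type site only were mostly outside the clusters. Cyp26a1 had a wild-type site 1.80 kb before its start, which was also the nearest to Cyp26c1 at 9.58 kb, and the nearest KO sites were 139 kb and 127 kb away. Cyp1a1 and Cyp1a2 had wild-type sites over the start and in an intron of the neighbour Edc3, the nearer at 20.5 kb and 24.7 kb, and KO sites no nearer than 164 kb and 169 kb. Cyp11a1 (11.8 kb), Cyp24a1 (13.8 kb) and Cyp2w1 (27.7 kb) were the other members with wild-type sites only. The median distance of the 3 retinoid genes was 9.58 kb in wild-type and 139 kb in KO livers, and that of the 5 xenobiotic genes outside the clusters 29.5 kb and 164 kb. For the 94 members together it was shorter in KO livers, as given above. The site before Cyp26a1 is shown as one called in wild-type livers only, and the word lies 255 bases from its middle.
Cyp26a1, wild type only (chr19:37695810-37695869, - strand): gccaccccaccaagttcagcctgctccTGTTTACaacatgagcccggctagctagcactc
Cyp2e1 had 2 sites in both genotypes, the nearer at 29.5 kb and 29.8 kb. Cyp4v3 had 2 wild-type and 6 KO sites, of which an intronic site (3.33 kb and 2.87 kb from the start) was called in both genotypes. Cyp2c23, outside the Cyp2c cluster and an arachidonic acid epoxygenase, had 4 and 6 sites. Cyp2f2 had an intronic site in both genotypes at 4.41 kb and 4.20 kb. Cyp2u1 had a site over its start in wild-type livers only and a KO site at 8.64 kb, and Cyp2ab1 had a wild-type site at 6.02 kb and a KO site at 32.1 kb. Cyp19a1 had an intronic wild-type site 43.6 kb from its start and a KO site outside the gene, and Cyp17a1 had sites in the neighbour Wbp1l, 30.8 kb away in wild-type and 44.4 kb in KO livers. Cyp2r1 (26.3 kb) and Cyp3a13 (40.2 kb) had KO sites only. Cyp11b1, Cyp11b2, Cyp21a1, Cyp26b1, Cyp27b1 and Cyp1b1 had no site within 50 kb in either genotype. Of the Cyp4f genes, Cyp4f39 and Cyp4f18 had a KO site within 50 kb (all genes 40.2%) and none had a wild-type site (all genes 32%).

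As a set, 45 wild-type and 66 KO sites lay within 50 kb of a member. Of these, 23 in each list overlapped a site of the other genotype by at least 1 bp, which is 51.1% of the wild-type and 34.8% of the KO sites, where 27.3% and 16.8% of all autosomal sites did. TGTTTAC was found on either strand in the central 300 bp of 8 wild-type sites (17.8%) and 12 KO sites (18.2%), where 14% of 4912 and 11.2% of 8051 autosomal sites held it. The GATA word AGATAA was in 3 wild-type sites (6.67%) and 13 KO sites (19.7%), against 17.3% and 19.8% of all sites. The nuclear receptor word AGGTCA, repeated after a spacer of 1 base, was in none, and in at most 0.0621% of all sites. Young lamin B1 domains held 8 of the wild-type sites near members (17.8%, all sites 35.9%) and 7 of the KO sites (10.6%, all sites 28.5%), and old domains held 28 (62.2%, all sites 64.3%) and 24 (36.4%, all sites 50.1%). Young H3K9me3 regions held 13 (28.9%, all sites 19.6%) and 19 (28.8%, all sites 22%), and old regions 11 (24.4%, all sites 23.2%) and 11 (16.7%, all sites 22.9%). The lamin B1 and H3K9me3 lists come from other mice than the Foxa2 lists, so these overlaps compare positions and not the same nuclei.

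RefSeq promoters, taken as 250 bases before to 50 bases after the start in GRCm38.p6, were found for 73 of the 94 members, with 83 promoters in all. TGTTTAC was in 8 of them (9.64%), where 3.71% of 31396 promoters held it, and these belonged to Cyp2ab1, Cyp2c38, Cyp2c39, Cyp2j5, Cyp3a11, Cyp3a16 and Cyp3a44. AGATAA was in 17 (20.5%, all promoters 11.2%) and the repeated AGGTCA in none (all promoters 0.0382%). A wild-type Foxa2 site lay over 2 of the 83 promoters (2.41%, all promoters 2.11%) and a KO site over 5 (6.02%, all promoters 1.34%). Of the 7 genes with the word, 1 (Cyp2j5) had a called site over the start.

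Read together, 37 members (39.4%) had neither lamin B1 nor H3K9me3 at either age, where 20% of all genes did. Among the 50 members without lamin B1 at either age, 19 (38%) had a Foxa2 site in KO livers only and 12 (24%) in both genotypes. Of the 5682 genes in the same lamin B1 state, 18.7% had a site in KO livers only and 10.3% in both. Of the 19 members, 15 were Cyp2j, Cyp4a, Cyp3a or Cyp2c genes of the clusters, and neighbours among them share sites. Among the 27 members with lamin B1 in old livers only, 2 (7.41%) had a KO site only and 13 (48.1%) sites in both genotypes, where 18.9% and 22.3% of 6606 genes in that state did.

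Genes that serve or control the P450 enzymes were also looked at, with Cyp51, a P450 gene outside the symbol rule. Together these pathway genes that are not members made a list of 18. Lamin B1 touched 8 of them in young (44.4%, all genes 40.9%) and 16 in old livers (88.9%, all genes 68.3%), and H3K9me3 touched 4 (22.2%, all genes 17.4%) and 6 (33.3%, all genes 31.2%). A Foxa2 site lay within 50 kb of 13 in wild-type (72.2%, all genes 32%) and 14 in KO livers (77.8%, all genes 40.2%). The median gene body of the 18 was 36.9 kb, where that of all genes was 17.6 kb, so the window searched was wider. Por, the reductase that feeds electrons to the enzymes, Nr1i2 and Nr1i3 had lamin B1 at both ages and Foxa2 in both genotypes. Ppara had lamin B1 in old livers only, with 3 wild-type sites and 1 KO site. Nr1h4, the bile acid receptor, had 4 KO sites, of which 1 lay over its start, and no wild-type site within 50 kb. Cyb5r3 had 3 KO sites and no wild-type site, and Rxra 1 wild-type site and no KO site within 50 kb. Nr0b2, a repressor of Cyp7a1, had a wild-type site 0.101 kb from its start and a KO site at 16.8 kb. Alas1 and Fdx1, for haem and for electron supply in mitochondria, Fdxr, Arnt and Cyb5a had lamin B1 in old livers only and Foxa2 in both genotypes, and Cyb5b and Hnf4a had lamin B1 at both ages and Foxa2 in both genotypes. H3K9me3 covered Ahr, Cyb5b and Fdx1 in young livers only, and parts or all of Cyb5r3, Fdxr, Hnf4a, Nr1i2 and Por in old livers only. Ahr, Hmox1 and Cyp51 had no Foxa2 site within 50 kb in either genotype.

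The lists were checked against genes of liver cells. Of 7 hepatocyte genes (Alb, Apoa1, Apoa2, Tat, G6pc, Pck1 and Serpina1a), 5 had a Foxa2 site within 50 kb in wild-type and 4 in KO livers. Of all genes, 32% and 40.2% did. There was none at G6pc and Serpina1a and a wild-type site only at Apoa1. None of 5 genes of other liver cells (Ptprc, Cd68, Pecam1, Col1a1 and Krt19) had a site in either genotype, a state held by 48% of all genes. With so few genes the check is a weak one. Since only uniquely aligned reads were kept, alike genes can lose reads. The share of a gene's words of 40 bases that another P450 gene also holds had a median of 12.5% in the clusters and 1.33% outside, and was highest in Cyp2c40 (51.3%), Cyp2c68 (47.5%), Cyp2c69 (44.9%), Cyp2a4 (44.6%) and Cyp2a5 (42.3%). None of these 5 genes had a region of any list over the gene body, and Cyp2c69 alone among them had a Foxa2 site within 50 kb, in KO livers. The part of shared sequence in this was not tested.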

How the data were processed

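ChIP-Seq reads of lamin B1, H3K9me3 and Foxa2 were mapped by the authors to mm10 (BWA), stripped of duplicates (Picard) and limited to unique alignments, and replicates were pooled. Lamin B1 domains were called with Epic, a version of SICER, in 10 kb windows, and Foxa2 sites with PeakSeq against input after KO reads had been reduced to the wild-type number. Lamin B1 was sequenced more deeply in young and H3K9me3 in old livers. The deposited values are the first and last position of each called region, with no signal or depth, so counting error cannot be given. The caller of the H3K9me3 regions is not given in the sources used here, the deposited lists hold fewer regions than the study's text gives at both ages, and their age was taken from the list's name.

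Positions were converted to count from 1 (Foxa2 lists taken as BED). Genes were those of GENCODE vM21, and the start of a gene was the outermost base of its annotation on the 5′ side. A gene was called touched at an overlap of 1 bp, and Foxa2 was counted within 50 kb of the gene body. Sequence came from GRCm38.p6 and RefSeq promoters. Words were searched on both strands. Pairs of sequences were aligned globally with Biopython 1.88. Python 3.11.15, numpy 2.4.6, pysam 0.24.0 and matplotlib 3.10.9 were used, and the overlap code was tested on simulated data. The members and gene lists were chosen with earlier results of these data known. Genes named were, by rule, the first and last of each cluster and the cluster genes whose lamin B1 or H3K9me3 state differed between ages. Also named by rule were members with a Foxa2 site in the gene or within 10 kb of its start. The role lists were named in full. Other members named, such as Cyp2c67, Cyp2w1 and Cyp4a14, were chosen after their values were seen. H3K9me2, and Foxa2 in old livers, were not analysed here. A further gene of the hepatocyte list is not reported here.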

Additional observations from a re-analysis of the deposited data

How the results depend on the processing

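Of 183 values recomputed under other settings, 159 stayed within 1.5 times the reported count or within the tolerance set for a difference, 24 moved and 0 reversed. The count of P450 genes with lamin B1 in young livers only was 1 in place of 2 when at least 50% of the gene body had to be covered and when the Cyp2c cluster was left out. The old minus young difference in genes with H3K9me3, reported as -4, was -1 by start site, with 10 kb added to the gene body and without Cyp2c or Cyp2d, -2 with at least 50% or the whole gene body covered and without Cyp3a, and 0 without Cyp2j. Genes with a Foxa2 site numbered 8 in wild-type and 17 in KO livers for the gene body alone, 23 and 27 with 10 kb added, and 17 and 28 with sites wider than the median alone. Genes with a wild-type site only were 2, and with a KO site only 11, for the gene body alone, and 11 had a KO site only with 10 kb added. The KO minus wild-type difference of 15 was 9 for the gene body alone, 4 with 10 kb added and 8 with each site given to its closest gene. TGTTTAC was in 16 wild-type (35.6%) and 23 KO sites (34.8%) when the whole site was searched, where 27.8% and 23.4% of all autosomal sites held it. The cause of these moves was not tested, beyond the smaller or larger window itself.

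No paired analysis was possible because each list was called on merged replicates and its columns carry no replicate number. Replicates could not be left out for the same reason. The lists hold no depth or score, so a gene without a called region cannot be told from one with signal below the caller's threshold, and for lamin B1 and H3K9me3 the difference in depth between ages cannot be told apart from age. For Foxa2, KO reads had been reduced to the wild-type number before calling.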

Other observations

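Foxa2 sites were unevenly spread over the chromosomes. Chromosome 17, which holds the Cyp4f genes other than Cyp4f18, Cyp21a1, Cyp39a1 and Cyp1b1, had 117 wild-type and 176 KO sites, the fewest of chromosomes 1 to 19 in each list. Of the 11 P450 genes on it, none had a wild-type site within 50 kb and 2, Cyp4f39 and Cyp39a1, had a KO site. Of all genes on chromosomes 1 to 19, 32% and 40.2% had one. The share over all genes of chromosome 17 is not given here, and most of the 11 are neighbouring Cyp4f genes.

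Sites near P450 genes were often not called closest to them. In each genotype 66.7% of the sites within 50 kb of a member had a member as the gene with the closest start (30 of 45 in wild-type and 44 of 66 in KO livers), and the others lay closer to neighbours such as Edc3, Cpn1, Erlin1, Hadh and Klkb1. Of the 66 KO sites, 21 lay in the body of a member, against 8 of the 45 wild-type sites. The matching shares over all sites of each list are not given here. Counted by gene, 14.1% of all genes had a KO site in the body and 11.1% a wild-type site.

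Cyp20a1, an orphan P450 with no known substrate, was the single member for which both lamin B1 (chr1:60310001-60680000) and H3K9me3 (chr1:60300001-60470000) were called in young livers only. Of all genes, 4.36% had lamin B1 and 7.13% had H3K9me3 in young livers only, and the share with both is not given here.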
